A study of Mus musculus with 6 samples.

Results

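Cadherins are calcium-dependent cell surface proteins through which neighbouring cells hold on to each other, and protocadherins are a large group of their relatives. Classical cadherins bind the same kind of cadherin on the next cell and pass the load to the actin cytoskeleton through beta-catenin, alpha-catenin and p120-catenin. Embryonic stem (ES) cells stick together in tight colonies through E-cadherin (Cdh1). In the embryo, cells that leave the epiblast often lose E-cadherin and gain N-cadherin (Cdh2), a change known as the cadherin switch. Protocadherins lack the catenin-binding tail of the classical cadherins and are best known from the nervous system, where the clustered alpha, beta and gamma genes give single neurons their surface identity.

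The genes were taken by name: every probe set with a single gene symbol that is Cdh followed by a number, or that starts with Pcdh. That gave 56 of the 18193 genes with a single symbol on the array, 21 cadherins and 35 protocadherins, of which 22 are beta protocadherins. They were measured by 101 probe sets, and 27 genes had more than 1. Where a gene had several, the brightest by its mean over all arrays stands for it, and all 56 symbols have an entry in the RefSeq gene table. Of 13 type II cadherins listed, Cdh12 and Cdh24 were not measured here by a probe set of their own.

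RNA came from E14TG2a, a mouse ES cell line that grows without feeder cells on gelatin, and was hybridised to Affymetrix arrays. The differentiating group was 3 samples kept for 3 days in medium without leukaemia inhibitory factor (LIF), the cytokine that holds ES cells in self-renewal, and sorted as positive for the surface glycoprotein 5T4. The undifferentiated group was 3 samples that kept LIF (1000 units per ml) and were sorted as negative for 5T4. Both groups are the same line with no other treatment named, and the effects of LIF withdrawal and of the sort cannot be told apart. Since the labels do not say that replicates were separate cultures, p-values measure only the spread between these samples, which may be technical.

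Values are log2 units of RMA, a method that corrects, normalizes and summarises the probes of each array, so that a difference of 1 is a doubling. Each probe set has its own sensitivity, and values are compared between arrays and never between genes. A gene passed at an adjusted p under 0.1 from limma over all probe sets. The number of arrays limits the precision, and an exact permutation test of 3 arrays against 3 cannot give a two-sided p below 0.1. In sorted bulk samples, fewer cells of a type and less RNA per cell cannot be told apart.

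Array medians lay between 5.54 and 5.65. Differentiating replicate 1 had a lower quartile of 4.26, against 4.07 to 4.10 on the other arrays. Tpbg, which encodes 5T4, read 6.71, 7.52 and 7.97 on differentiating replicates 1 to 3. On undifferentiated replicates 1 to 3 it read 5.94, 6.76 and 5.68, so undifferentiated replicate 2 lay above the lowest differentiating array. Its change was 1.27 and did not pass in limma's test (adjusted p = 0.22). The 8 ES cell markers averaged 10.38 to 11.10 on the differentiating and 11.67 to 12.13 on the undifferentiated arrays, and Pou5f1 (log2 fold change -0.68, adjusted p = 0.0859) and Sox2 (-0.96, adjusted p = 0.0897) fell in limma's test. Neither passed without differentiating replicate 2 or 3 or undifferentiated replicate 1 or 3 (adjusted p from 0.114 to 0.366), nor Pou5f1 without differentiating replicate 1 (0.11) or with the replicate block (0.136), nor Sox2 after a second quantile normalization (0.106). Over all genes 0 passed as higher and 0, 3 and 1 as lower without differentiating replicate 2, differentiating replicate 3 and undifferentiated replicate 3. Differentiating replicate 1 had the 11.10 of the ES cell markers and was the highest of its group in 4 of the 8. Zfp42 read 11.01, 9.43 and 8.69 on differentiating replicates 1 to 3, and Esrrb 8.81, 7.25 and 5.45. Both were named after their values were seen. Differentiating replicate 1 and undifferentiated replicate 2 stand apart among the cadherins too, and values without them are given beside the results they touch.

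Across the 56 genes, 2 were higher in the differentiating cells, the delta protocadherin Pcdh1 and the type II cadherin Cdh6, and 0 were lower. Over all genes, 0.797% passed as higher and 1.45% as lower. The count of members at an unadjusted p under 0.05 was 5 of 56, a smaller share than the 3129 of 18193 genes in all. With a log2 fold change of at least 1 also asked for, Pcdh1 alone remained, against 0.511% of all genes. The fold changes ran from -0.21 for Pcdhgc4 to 1.41 for Cdh10, with a median of 0.12 beside 0.02 for all genes. Of the 56, 45 (80.4%) lay above 0, against 53.6% of all genes, and without differentiating replicate 1 that number was 34 and the median 0.05, beside -0.011 for all genes. The members' median was 0.079 after a second quantile normalization and 0.080 with arrays centred on their medians, where all genes stood at 0.0084 and -0.021. For 49 members the 95% interval of the change lay within 2-fold in either direction, as it did for 15113 of the 18193 genes. By brightness, 30 members fell in the dimmest 25% of probe sets and 47 below the median probe set. No detection calls came with the values, and a gene that is off cannot be told from one that is low.

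**Figure D1:**
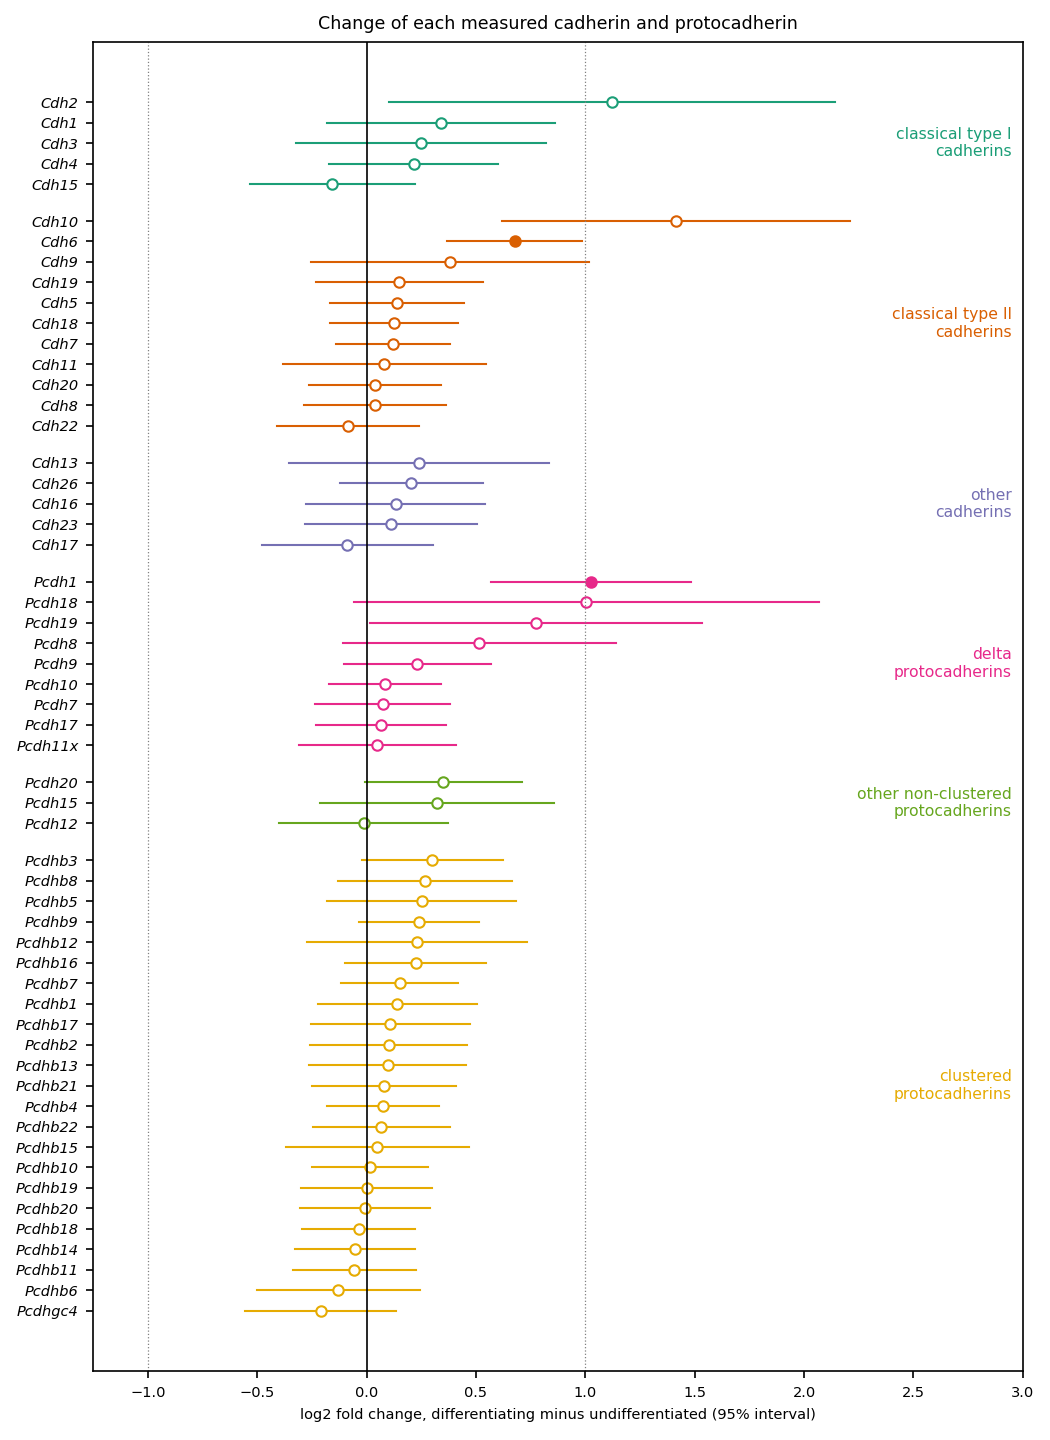
Log2 fold change of each of the 56 genes, differentiating minus undifferentiated, with its 95% interval, grouped by role. Filled points passed at an adjusted p under 0.1, and dotted lines mark a 2-fold change. Pcdh1 and Cdh6 are filled, and Cdh2, Cdh10 and Pcdh18 have the widest intervals of the larger changes.

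In 6 members every differentiating array lay above every undifferentiated array, namely Pcdh1, Cdh6, Cdh10, Pcdhb3, Pcdhb9 and Cdh7, and the last was named after its values were seen. Over all genes the share was 10.7%, close to the 6 of 56 here. In the other direction there were 0 members, where 12.8% of all genes were separated.

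Among the type I cadherins, those of the cadherin switch, 0 of 5 passed, with a median change of 0.25. E-cadherin (Cdh1, probe set 1448261_at), the cadherin of ES cell colonies, read 11.42, 11.96 and 12.09 on the 3 differentiating arrays and 11.69, 11.59 and 11.17 on the 3 undifferentiated arrays. It was bright on all 6, the groups overlapped, and the lowest value was that of undifferentiated replicate 3. Differentiating cells averaged 11.82 ± 0.36 (SD, n = 3) and undifferentiated cells 11.48 ± 0.27 (SD, n = 3). The change was 0.34 with a standard error of 0.22, an adjusted p of 0.566 and an interval from -0.18 to 0.86, so a fall to under 0.882 of the undifferentiated level lies outside the interval. Leaving out any single array kept the estimate above 0, between 0.19 and 0.54.

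N-cadherin (Cdh2, probe set 1418815_at), the cadherin of neural and mesodermal cells, read 8.35, 7.75 and 8.52 on the differentiating arrays and 6.44, 8.06 and 6.75 on the undifferentiated arrays. Undifferentiated replicates 1 and 3 were below every differentiating array, whereas replicate 2 sat among them. The change was 1.12 (2.18-fold) with a standard error of 0.43, an interval from 0.10 to 2.14 and an adjusted p of 0.318. A second probe set read 7.06, 6.83 and 7.35 against 5.46, 7.43 and 6.39, so that undifferentiated replicate 2 was the highest of all 6 arrays there (change 0.65, adjusted p = 0.598). Without undifferentiated replicate 2 the change at the first probe set was 1.61 with an adjusted p of 0.0536. With differentiating replicate 1 also left out it was 1.54 with an adjusted p of 0.109. With any other single array left out it was 0.80 to 1.35 and did not pass (adjusted p from 0.450 to 0.617).

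P-cadherin (Cdh3), an epithelial and placental relative of E-cadherin named here after its values were seen, read 6.75, 7.21 and 6.63 against 7.07, 6.33 and 6.46, and its groups overlapped (change 0.25, adjusted p = 0.714). R-cadherin (Cdh4), found in retina and brain, read 6.41, 6.63 and 6.47 against 5.98, 6.48 and 6.41. Its change was 0.21 (adjusted p = 0.627), with undifferentiated replicate 1 the low array.

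**Figure D2:**
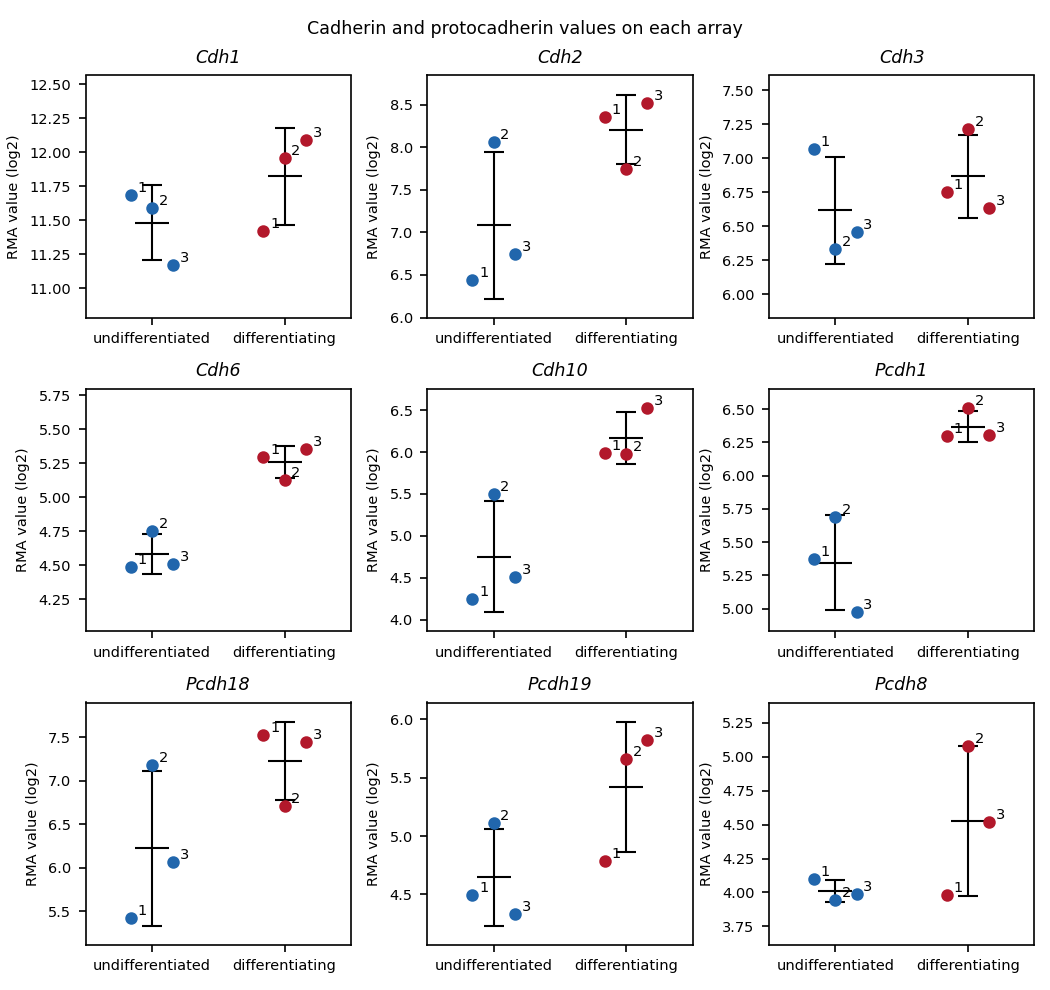
RMA values (log2) of 9 cadherin and protocadherin genes on the 3 undifferentiated (blue) and 3 differentiating (red) arrays, numbered by replicate, each gene on its own scale, with the mean and SD in black. Cdh1 overlaps between the groups, Pcdh1, Cdh6 and Cdh10 do not, and in Cdh2 and Pcdh18 undifferentiated replicate 2 lies with the differentiating arrays.

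Type II cadherins are the classical cadherins that lack the short adhesion motif of type I and are used by motor neurons, kidney and vessels. Of 11 measured, 1 passed, and the median change was 0.13. Cdh6 (K-cadherin, probe set 1450288_at), known from kidney, neural crest and the neural plate border, read 5.30, 5.12 and 5.35 on the differentiating arrays and 4.49, 4.75 and 4.50 on the undifferentiated arrays. The groups did not overlap, and the spread within each was small. It rose by 0.68 (1.60-fold) with a standard error of 0.13 and an adjusted p of 0.0949. Without undifferentiated replicate 2 the rise was 0.76 (adjusted p = 0.0712). Leaving out any other single array ended the call, with changes of 0.63 to 0.74 and adjusted p between 0.129 for differentiating replicate 1 and 0.346 for undifferentiated replicate 3. A dimmer second probe set of Cdh6 showed a log2 difference of 0.21 (adjusted p = 0.503), with its groups also apart.

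Cdh10 (probe set 1425092_at), a brain cadherin close in sequence to Cdh6 and Cdh9, read 5.99, 5.98 and 6.52 against 4.25, 5.50 and 4.51. It had the largest change of the 56, and every differentiating array lay above undifferentiated replicate 2, the highest of its group. The change was 1.41 (2.67-fold) with a standard error of 0.34, an interval from 0.62 to 2.21 and an adjusted p of 0.14. Without undifferentiated replicate 2 it was 1.79 (adjusted p = 0.0324). With any other single array left out Cdh10 did not pass, at changes of 1.16 to 1.51 and adjusted p of 0.177 to 0.427. Its 3 other probe sets lie in the dimmest 25% and had log2 fold changes of 0.14 to 0.20, and the mean over its 4 probe sets showed a log2 difference of 0.48.

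Cdh9, a cadherin of brain synapses, read 5.77, 6.43 and 5.88 against 5.22, 5.60 and 6.12, and the groups overlapped (change 0.38, adjusted p = 0.601). The other 8 type II genes had log2 fold changes of -0.09 to 0.15. Among them VE-cadherin (Cdh5), the junctional cadherin of endothelium, showed a log2 difference of 0.14 (adjusted p = 0.699) and Cdh11, the cadherin of mesenchyme, one of 0.08 (adjusted p = 0.898), both named after their values were seen.

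The 5 other cadherins, which lie outside the classical types, had 0 that passed and a median change of 0.13. Cdh26 showed a log2 difference of 0.21 (adjusted p = 0.585). T-cadherin (Cdh13), held in the membrane by a lipid anchor in place of a tail, read 6.17, 5.28 and 5.42 against 5.30, 5.64 and 5.22 (change 0.24, adjusted p = 0.733). Its highest value was on differentiating replicate 1, and without that array the change was -0.033. The kidney cadherin Cdh16 showed a log2 difference of 0.13 (adjusted p = 0.791).

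The delta protocadherins are single genes scattered over the genome, and several direct cell movements and axon growth in the embryo. All 9 measured had a change above 0, 1 passed, and the median was 0.23. Pcdh1 (probe set 1452294_at), known from airway epithelium, read 6.30, 6.51 and 6.30 on the differentiating arrays and 5.37, 5.69 and 4.97 on the undifferentiated arrays. The 3 differentiating values lay close together, and undifferentiated replicate 2 was 0.52 above the mean of the other two in its group without reaching them. Pcdh1 rose by 1.02 (2.03-fold) with a standard error of 0.19, an interval from 0.57 to 1.48 and an adjusted p of 0.0931. It has a single probe set. Without undifferentiated replicate 2 the rise was 1.20 (adjusted p = 0.0451). With each other array left out it was 0.84 to 1.06 and did not pass. Adjusted p then ran from 0.118 for undifferentiated replicate 1 to 0.374 for differentiating replicate 2. Without differentiating replicate 2 or 3 or undifferentiated replicate 3, 0 of all genes passed as higher.

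Pcdh18 (probe set 1422889_at), a protocadherin of mesoderm and its derivatives, read 7.53, 6.72 and 7.45 against 5.43, 7.19 and 6.07. As in Cdh2, undifferentiated replicate 2 lay among the differentiating arrays. The change was 1.01 with a standard error of 0.45 and an adjusted p of 0.394. Without that array it was 1.49 (adjusted p = 0.0956), and with differentiating replicate 1 also left out 1.34 (adjusted p = 0.175). With any other single array left out it was 0.61 to 1.26 and did not pass (adjusted p from 0.538 to 0.659). The 2 other probe sets had log2 fold changes of 0.81 (adjusted p = 0.532) and 0.35 (adjusted p = 0.778), and undifferentiated replicate 2 was the highest of its group at both.

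Pcdh19 (probe set 1437360_at), an X-linked gene whose protein joins N-cadherin in adhesion, read 4.78, 5.66 and 5.82 against 4.50, 5.11 and 4.33. Here differentiating replicate 1 was the low array of its group and undifferentiated replicate 2 the high array of the other. The change was 0.78 with a standard error of 0.32, an interval from 0.02 to 1.53 and an adjusted p of 0.353. With both of those arrays left out it was 1.33 (adjusted p = 0.0424), and with either one alone left out the adjusted p was 0.147 or 0.219. Its other 2 probe sets had log2 fold changes of 0.43 (adjusted p = 0.282) and 0.28 (adjusted p = 0.497), and at the brighter of them the groups did not overlap.

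**Figure D3:**
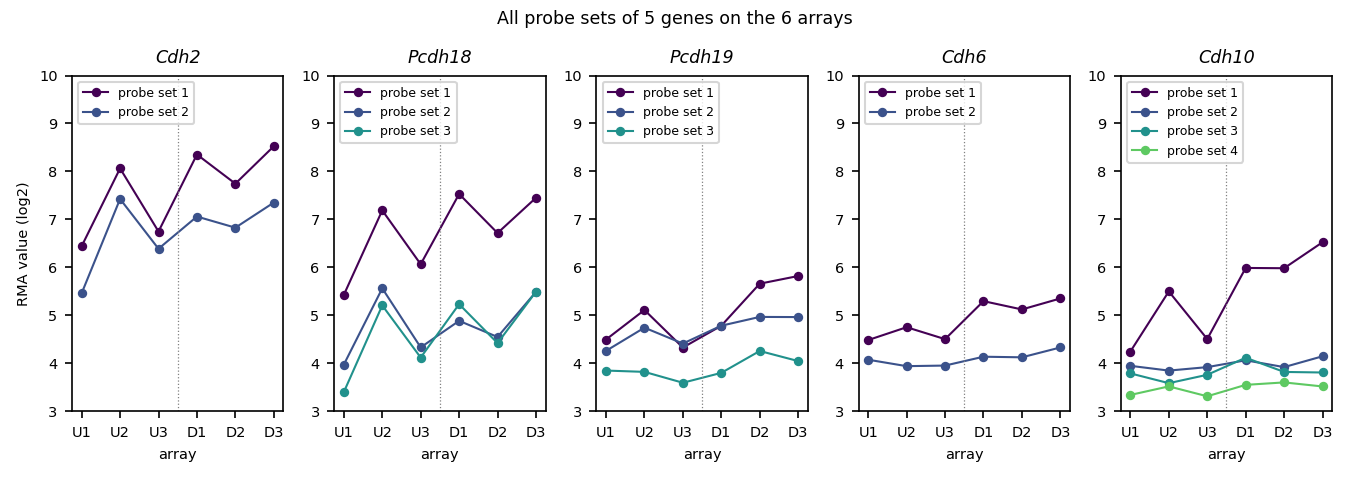
RMA values (log2) of all probe sets of 5 genes on undifferentiated arrays 1 to 3 (U1 to U3) and differentiating arrays 1 to 3 (D1 to D3), with 1 line per probe set and a dotted line between the groups. In Cdh2 and Pcdh18 U2 is the highest undifferentiated array at each probe set, and the dimmer probe sets of Cdh6 and Cdh10 differ less between the groups than the brightest.

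Pcdh8 (paraxial protocadherin, PAPC), a marker of the primitive streak and presomitic mesoderm, read 3.98, 5.08 and 4.52 against 4.10, 3.95 and 3.99. Differentiating replicates 2 and 3 were above all undifferentiated arrays and replicate 1 was not. The change was 0.51 (adjusted p = 0.461), at a probe set of the kind Affymetrix marks with x, which may also bind other transcripts, and a second probe set showed a log2 difference of 0.24 (adjusted p = 0.708). The other 5 delta genes had log2 fold changes of 0.05 to 0.23.

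Of the 3 other non-clustered protocadherins 0 passed. Pcdh20 read 4.06, 3.77 and 3.89 against 3.37, 3.79 and 3.51 (change 0.35, adjusted p = 0.376), with undifferentiated replicate 2 above one of the differentiating arrays. Pcdh15, part of the tip link of hair cells, showed a log2 difference of 0.32 (adjusted p = 0.597), and its value of 5.48 on differentiating replicate 1 stood above the 4.57 to 4.81 of the other arrays. Pcdh12, an endothelial and trophoblast gene, showed a log2 difference of -0.014 (adjusted p = 0.982).

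For 4 genes of the type II and delta groups with larger changes, Cdh6, Cdh10, Pcdh18 and Pcdh19, the RefSeq promoter table (GRCm38.p6) allows the sequence before the start to be read. They are shown because these genes had 4 of the 6 largest changes of the 56, the others being Cdh2 and Pcdh1, and their promoters differ widely in base composition. Each is the 250 bases before the annotated start, on the gene's own strand and 5′ to 3′, and capitals mark GC boxes, the letters CCGCCC or GGGCGG on either strand, which overlap where they share bases. They lie at chr15:13173676-13173925 on the minus strand (Cdh6), chr15:18820079-18820328 on the plus strand (Cdh10), chr3:49757317-49757566 on the minus strand (Pcdh18) and chrX:133688994-133689243 on the minus strand (Pcdh19).
Cdh6: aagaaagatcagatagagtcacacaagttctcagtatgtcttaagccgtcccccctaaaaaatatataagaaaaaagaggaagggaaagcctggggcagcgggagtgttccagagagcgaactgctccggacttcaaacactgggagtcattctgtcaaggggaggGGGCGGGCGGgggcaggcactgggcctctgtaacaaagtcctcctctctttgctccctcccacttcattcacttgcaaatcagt
Cdh10: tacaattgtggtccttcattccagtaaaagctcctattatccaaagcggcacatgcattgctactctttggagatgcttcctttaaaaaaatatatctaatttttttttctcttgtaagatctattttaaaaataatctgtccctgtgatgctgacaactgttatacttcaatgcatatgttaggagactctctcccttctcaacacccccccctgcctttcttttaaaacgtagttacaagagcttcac
Pcdh18: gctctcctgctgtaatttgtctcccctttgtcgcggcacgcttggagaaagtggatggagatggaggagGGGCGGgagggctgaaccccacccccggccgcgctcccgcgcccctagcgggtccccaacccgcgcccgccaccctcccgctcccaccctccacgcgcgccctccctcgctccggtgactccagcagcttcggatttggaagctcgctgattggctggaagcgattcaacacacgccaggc
Pcdh19: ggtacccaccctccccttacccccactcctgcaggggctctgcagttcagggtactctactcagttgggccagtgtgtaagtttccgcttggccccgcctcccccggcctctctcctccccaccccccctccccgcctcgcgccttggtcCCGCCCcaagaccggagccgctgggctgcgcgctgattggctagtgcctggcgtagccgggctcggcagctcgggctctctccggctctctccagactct

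The Pcdh18 and Pcdh19 windows are rich in G and C, at 68% and 69.2%, that of Cdh6 is at 51.2% and that of Cdh10 at 36.8%, beside a median of 52.4% over all promoters of the table. Cdh6 holds 2 GC boxes, Pcdh18 and Pcdh19 hold 1 each and Cdh10 holds 0. A GC box stood in 32.7% of 32851 promoters and in 8 of the 23 promoters listed for member genes. The E2 box (CAGGTG or CACCTG on either strand), the letters read by Snail and Zeb repressors, was in 0 of these 4 windows, in 3 of the 23 and in 17.2% of all. The 23 promoters belong to 20 of the 56 genes. Cdh1 had no entry among them, so the E-cadherin promoter was not searched for either box. The boxes are matches of letters and not sites shown to be used.

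The clustered protocadherins were all dim. The 23 genes, 22 beta genes and Pcdhgc4, all lay below the median probe set and 18 in the dimmest 25%. None passed, at a median change of 0.08, and in all 23 the 95% interval lay within 2-fold. These intervals bound the array values, and no detection calls show which of the 23 genes were on. With the smallest adjusted p of the 23, Pcdhb3 read 3.74, 3.40 and 3.40 against 3.30, 3.19 and 3.15 (change 0.30, adjusted p = 0.403) and Pcdhb9 read 3.17, 3.13 and 3.25 against 2.84, 3.07 and 2.93 (change 0.24, adjusted p = 0.431). In both the groups did not overlap, and both lie in the dimmest 25% of probe sets. Pcdhb16 showed a log2 difference of 0.22 (adjusted p = 0.541), and Pcdhgc4, named after its values were seen, one of -0.21 (adjusted p = 0.596).

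Of the 22 beta genes, 16 had a change above 0, and this count moved most with differentiating replicate 1. With each other single array left out it was 15 to 20. The median deviation of the beta genes from their own means was 0.15 on differentiating replicate 1 and -0.06 to 0.01 on the other 5 arrays. That array was the highest of its group in 14 of 22 beta genes, in 21 of the 30 members in the dimmest 25% (70%), and in 68.8% of all 2855 genes there. Without it, 11 of 22 beta genes lay above 0 and their median change went from 0.09 to 0.0054. It was 0.034 after a second quantile normalization and 0.046 with arrays centred on their medians.

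**Figure D4:**
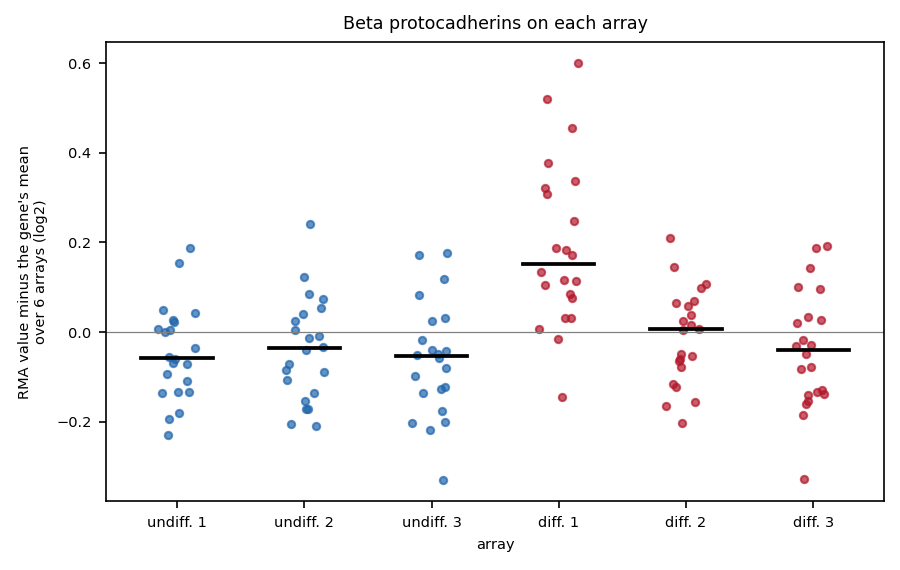
Deviation of each of the 22 beta protocadherins from its own mean over the 6 arrays (log2 RMA units), by array, with undifferentiated arrays in blue, differentiating arrays in red and the median as a black line. The median is 0.15 on differentiating replicate 1 and lies between -0.06 and 0.01 on the other arrays.

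Probe sets that match several clustered genes at once are no members, since no single gene can be named. There were 6 of them, for 9 or 14 alpha genes each. One for 14 genes read 4.02, 4.49 and 4.26 on the differentiating and 3.76, 3.79 and 3.27 on the undifferentiated arrays, with the groups apart (change 0.65, adjusted p = 0.21). A second showed a log2 difference of 0.46 (adjusted p = 0.16) and another one of 0.21 (adjusted p = 0.441), also with their groups apart, and the other 3 had log2 fold changes of -0.13 to 0.12.

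Undifferentiated replicate 1 was the highest array of its group in 22 of all 56 members, against 46.5% of all genes. Among the 10 members of largest change it was so in 2. Undifferentiated replicate 2 was the highest in 7 of those 10 and in 22 of the 56. The share over all genes, of any size of change, was 26.2% for undifferentiated replicate 2. Its distance above the mean of the other 2 undifferentiated arrays was 1.47 for Cdh2, 1.44 for Pcdh18, 1.12 for Cdh10, 0.70 for Pcdh19, 0.61 for Cdh11, 0.52 for Pcdh1 and 0.26 for Cdh6. For Cdh2 and Pcdh18 it came within 0.14 and 0.044 of the mean of the differentiating arrays. Without it 5 members were higher, Cdh2, Cdh10, Cdh6, Pcdh1 and Pcdh18, where 2.36% of all genes passed as higher. When arrays were weighted by their estimated quality, 7 members were higher, with 10.0% of all genes, and these were Pcdh1, Cdh6, Cdh10, Pcdh19, Pcdh8, Cdh1 and Cdh3. Cdh1 then rose by 0.57 (adjusted p = 0.0559) and Pcdh8 by 0.95 (adjusted p = 0.032), while Cdh2 was at 0.70 (adjusted p = 0.282). The weights ran from 0.298 for differentiating replicate 1 to 5.11 for differentiating replicate 2, so that 1 array carried most of its group.

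**Figure D5:**
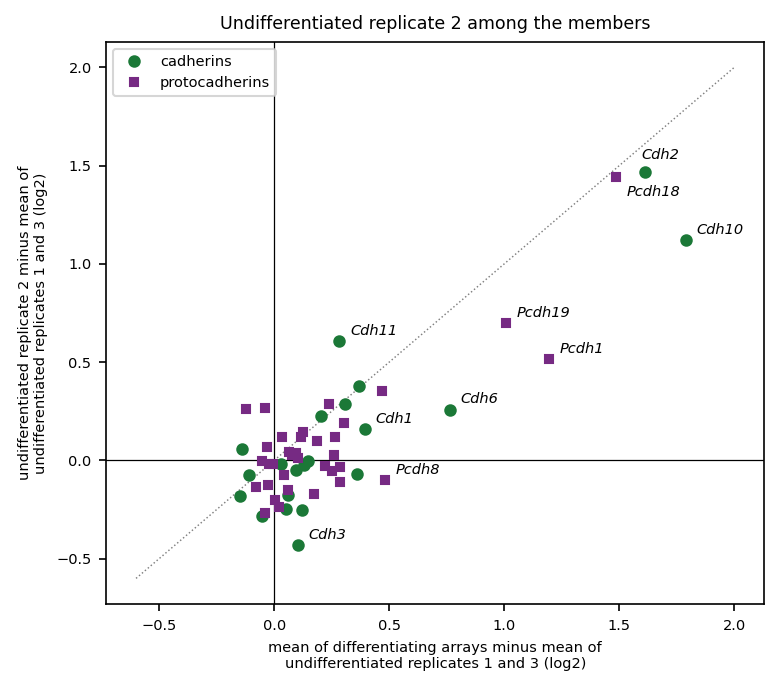
Each of the 56 genes by the mean of the 3 differentiating arrays (horizontal) and by undifferentiated replicate 2 (vertical), both as the difference from the mean of undifferentiated replicates 1 and 3 (log2), which the axes share. On the dotted line replicate 2 equals the differentiating mean, and Cdh2 and Pcdh18 lie near it while Pcdh1 and Cdh6 lie well below.

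Markers of other cell types were read on the same arrays. The 10 visceral and parietal endoderm markers averaged 6.61 on undifferentiated replicate 2, beside 6.15 to 6.21 on the other undifferentiated and 6.66 to 6.73 on the differentiating arrays. That replicate was the highest of its group in 8 of the 10, by unequal amounts, and not in Sox17 and Foxa2. Dab2 read 7.45 there against 5.63 and 5.94, and Sparc 11.85 against 11.04 and 10.43. Gata4 read 4.93 against 4.79 and 4.85. These endoderm markers were named after their values were seen. The 10 fibroblast markers averaged 5.63 on undifferentiated replicate 2, beside 5.23 to 5.26 on the other undifferentiated and 5.53 to 6.01 on the differentiating arrays. That replicate was the highest of its group in 6 of these 10, and the members differed. Col1a2 read 8.44 there against 5.55 and 6.51, and Thy1 5.21 against 7.24 and 5.45, both named after their values were seen. Endothelial and blood markers averaged 5.18 to 5.44 on the undifferentiated and 4.68 to 5.13 on the differentiating arrays, and neural markers 6.42 to 6.50 and 6.10 to 6.57. The median change of the endothelial and blood list was -0.23. Its largest falls were Pecam1 at -1.93 and Tek at -0.92, both named after their values were seen. Pecam1 read 8.04, 6.14 and 4.80 on differentiating replicates 1 to 3, against 8.67, 7.56 and 8.54 on the undifferentiated arrays. The ES cell markers Zfp42 and Esrrb also fell from differentiating replicate 1 to 3. Whether the falls of Pecam1 and Tek reflect endothelial or blood cells was not tested. Of these 4 lists Tubb3, a neuronal tubulin, passed, and it was lower (change -1.30, adjusted p = 0.0897). Of the single arrays left out, only undifferentiated replicate 2 kept that call, and adjusted p was 0.114 to 0.366 without each of the others and 0.107 with the replicate block. Over all genes, 0, 3 and 1 passed as lower without differentiating replicate 2, differentiating replicate 3 and undifferentiated replicate 3. The part of other cell types in the cadherin values was not tested.

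The partners of cadherins were read from 7 lists with 77 measured genes, of which 1 passed. Of 17 catenins and adherens junction adaptors, Ctnnal1, a relative of alpha-catenin, read 8.26, 8.37 and 8.51 on the differentiating and 9.24, 9.30 and 9.24 on the undifferentiated arrays. The groups stood well apart, and it fell by 0.88 on the log2 scale (adjusted p = 0.0501). Without differentiating replicate 2 or 3 or undifferentiated replicate 3 it did not pass (adjusted p = 0.29, 0.21 and 0.208), at changes of -0.88, -0.94 and -0.89. Over all genes 0, 3 and 1 passed as lower in those settings. The other 16 genes of the list did not pass, and its median change was 0.08. The core catenins, named after their values were seen, did not pass, with log2 fold changes of 0.06 for beta-catenin (Ctnnb1, interval -0.18 to 0.30), 0.10 for alpha-catenin (Ctnna1, -0.20 to 0.39) and 0.37 for p120-catenin (Ctnnd1, -0.013 to 0.74).

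None of the 5 nectins passed, immunoglobulin-like partners of cadherins at the junction, with Pvr at -0.57 (adjusted p = 0.476) and Nectin1 at 0.23 (adjusted p = 0.672). Of 10 desmosomal genes 0 passed, at a median of -0.01. The desmosomal plakophilin Pkp3 showed a log2 difference of -0.43 (adjusted p = 0.238). The desmosomal cadherin Dsc2 read 7.39, 7.30 and 7.07 against 5.33, 8.12 and 5.98, so that undifferentiated replicate 2 was the highest of all 6 arrays. Among 17 other genes of the cadherin superfamily 0 passed. The giant cadherin Fat1 read 12.50, 12.43 and 12.54 against 11.02, 12.10 and 11.36 (change 0.99, adjusted p = 0.172), and Fat3 showed a log2 difference of 0.21 (adjusted p = 0.48).

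Proteases and turnover factors that shed or remove cadherins (8 measured) had 0 that passed and a median change of 0.04, with Ncstn, of the gamma-secretase, at 0.29 (adjusted p = 0.558) and Mmp7 at 0.19 (adjusted p = 0.737). Of the 9 repressors of E-cadherin transcription 0 passed, at a median of 0.06. Zeb1 read 6.78 and 7.07 on differentiating replicates 2 and 3 and 7.66 to 8.51 on the other 4 arrays (change -0.75, adjusted p = 0.42) and Tcf3 showed a log2 difference of -0.24 (adjusted p = 0.436). Snai1 showed a log2 difference of -0.31 (interval -0.76 to 0.15) and Snai2 one of -0.026 (interval -0.40 to 0.35), both named after their values were seen.

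The 11 regulators of promoter choice in the protocadherin clusters, among them Ctcf and the cohesin subunits, also had 0 that passed, at a median of 0.15. The DNA methyltransferase Dnmt3b, which methylates those promoters in the early embryo, read 12.24, 12.88 and 12.83 against 11.35, 11.89 and 11.80, with the groups apart (change 0.97, adjusted p = 0.132). The cohesin subunit Stag2 showed a log2 difference of 0.99 (adjusted p = 0.255), and Ctcf, named after its values were seen, one of -0.06 (interval -0.36 to 0.24).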

How the data were processed

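RNA of the 6 samples was hybridised to Affymetrix arrays. The authors ran RMA from the affy library (version: not given in the sources used here). Each array has a column of deposited log2 values. All columns were matched by the labels. Of 45101 probe sets, 64 controls were left out. Of the 45037 tested, 34945 had 1 symbol in the platform annotation, 932 several and 9160 none. The fit used lmFit and eBayes of limma 3.58.1 under R 4.3.3, without a replicate block (2.93 prior degrees of freedom), with Benjamini-Hochberg adjustment over all probe sets. Members, gene lists and tests were chosen with earlier results of these data known. The named genes are Cdh1, Cdh2, members with adjusted p under 0.1, the 10 largest changes and up to 3 per role by adjusted p, with their other probe sets; in partner lists, genes with adjusted p under 0.1 or otherwise up to 2 of smallest adjusted p; and, as cell type markers, Pou5f1, Sox2 and genes with adjusted p under 0.1. Others are marked where named.

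On data simulated from this comparison with 200 of 45037 probe sets changed, limma recovered 48%, 78%, 93% and 95% at log2 fold changes of 1, 1.5, 2 and 3, so a gene that did not pass can have changed. The alternatives were a replicate block, a filter on the dimmest 25% of probe sets, arrays centred on their medians or quantile normalized again, array weights, a trended robust variance, single arrays left out, stricter thresholds and the mean of all probe sets of a gene. Leaving out differentiating replicate 1 and undifferentiated replicate 2 together was chosen after seeing the data. Tables were made in Python 3.11.15 with pandas 2.3.3.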

Additional observations from a re-analysis of the deposited data

How the results depend on the processing

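The number of members that were higher was 2 and depended on the setting. It was 1 with the replicate block, 1 after a second quantile normalization, 1 with the mean of all probe sets of a gene, 1 when a log2 fold change of at least 1 was also asked for, 0 with arrays centred on their medians, 0 at an adjusted p under 0.05 and 7 with array weights, and 0 to 5 when single arrays were left out. It was 3 with differentiating replicate 1 and undifferentiated replicate 2 left out, and no setting gave a member that was lower. Over all genes, 145 were higher and 264 lower, against 1826 and 1760 with array weights, 551 and 464 with both arrays left out, 93 and 311 with median centring, while 0 were higher and 0, 3 and 1 lower without differentiating replicate 2, differentiating replicate 3 and undifferentiated replicate 3. The cause was not tested.

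Cdh1 passed with array weights alone, at 0.57. Cdh2 ran from 0.80 to 1.61 with single arrays left out. Near 0, signs turned: Cdh13 was -0.035 with array weights and -0.033 to 0.41 with single arrays left out, Cdh16 was -0.10 with both arrays left out and -0.012 to 0.27 with single ones, and Pcdh12 was 0.13 with the mean of all probe sets and -0.17 to 0.12 with single arrays left out. Of 281 values for the 19 named members, 246 kept their direction and side of the threshold, 18 no longer passed, 9 newly passed and 8 turned sign. The replicate block, the trended robust variance, the filter on dim probe sets and the stricter threshold left the fold changes unchanged. No sign could turn in those settings. Partner genes that passed went from 1 to 2 with the block, 3 with the mean of all probe sets, 14 with array weights, 8 with both arrays left out and 0 at an adjusted p under 0.05, and 0 to 6 with single arrays left out. With the dimmest 25% of probe sets left out, 26 of the 56 members had a value.

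The replicate numbers are shared by both groups, but deviations of same-numbered arrays correlated at 0.205, -0.110 and 0.115, and the highest correlation was 0.316 for differentiating replicate 3 with undifferentiated replicate 2. The labels name no other link between same-numbered arrays. With 3 arrays per group these correlations cannot decide whether they were paired. With the block, Pcdh1 passed (adjusted p = 0.0866) and Cdh6 did not (adjusted p = 0.159).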

Other observations

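Among the partner genes, undifferentiated replicate 2 was the highest array of its group for several genes of cell junctions, though not for others. Over all genes that replicate was the highest of its group in 26.2%. Vcl, which encodes vinculin, a link of junctions and focal contacts to actin, read 11.38, 11.10 and 11.55 on the differentiating and 9.90, 11.22 and 9.87 on the undifferentiated arrays (change 1.02, adjusted p = 0.289 from limma), and without that replicate the change was 1.46 (adjusted p = 0.0322). The desmosomal linker Dsp read 9.97, 9.98 and 10.50 against 9.41, 10.71 and 8.82. For Dsc2 the change was 0.78 (adjusted p = 0.664) with all arrays and 1.60 (adjusted p = 0.0427) without it. The junction adaptors Tjp1 (11.35, 11.39 and 11.64 against 10.70, 11.25 and 10.85) and Vezt (7.17, 7.15 and 7.39 against 6.41, 7.01 and 6.47) also had that replicate as the highest of its group, with the groups apart, at changes of 0.53 (adjusted p = 0.249) and 0.61 (adjusted p = 0.22). At Ctnnal1 that replicate was also the highest of its group, but by little, with 9.24, 9.30 and 9.24 on the undifferentiated arrays. It was the lowest of its group at the adaptors Lima1 (9.59, 8.49 and 9.68) and Arvcf (7.76, 6.66 and 6.69). Apart from Dsc2 and Ctnnal1, these genes were picked after their values were seen.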
